A study of Mus musculus with 9 samples.

Results

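The genes described here are the G1 cyclins, their kinases and the Cip/Kip inhibitors Cdkn1b and Cdkn1c, the machinery that carries a cell through G1 into S phase. They were chosen by gene symbol from a list of 10 names: Ccnd1, Ccnd2, Ccnd3, Ccne1, Ccne2, Cdk2, Cdk4, Cdk6, Cdkn1b and Cdkn1c. A gene was represented by the array's transcript cluster (the probes grouped for 1 transcript) that carried its symbol alone, or by the brightest such cluster where there were several. This gave 9 of the 10 genes, out of 30050 genes measured. The only listed cluster with the symbol Ccnd1 also carried the microRNA gene Mir3962, so no value was assigned to Ccnd1.

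RNA came from cells labelled HL-1, a mouse line derived from atrial heart muscle cells, and was hybridized to 9 Affymetrix arrays, 3 for each of 3 groups. DOX_IFNg cells received 0.3 µM doxorubicin with 20 ng/ml interferon gamma, DOX cells received 0.3 µM doxorubicin alone, and Con cells received phosphate-buffered saline. The labels give this 1 line, and medium with fetal bovine serum, for all cells. Doxorubicin is a cancer drug that poisons topoisomerase II and breaks DNA, and interferon gamma is a cytokine of lymphocytes. How long the cells were treated is not stated in the labels. The effect of interferon gamma could be compared only on top of doxorubicin, because no group received it by itself among the arrays analysed here.

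Cyclins of the D type bind Cdk4 and Cdk6 and start the phosphorylation of the retinoblastoma protein, which holds E2F transcription factors in check. Released E2F factors switch on genes for S phase, among them the E cyclins, whose complexes with Cdk2 phosphorylate the retinoblastoma protein further and help to fire replication origins. The inhibitors p27 (Cdkn1b) and p57 (Cdkn1c) bind cyclin E with Cdk2 and block it, and p27 protein is destroyed when cells enter S phase. Adult heart muscle cells have largely left the cell cycle, whereas a line such as HL-1 is kept dividing in culture.

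The promoters of 3 of these genes are shown because they belong to the E cyclin and the kinase with the largest falls in RNA described below, Ccne1 and Cdk2, and to Cdk4, a kinase with no called change. Each is the stretch of 250 bases before the annotated start of the gene, from RefSeq for GRCm38.p6, written 5′ to 3′ along the gene's strand. Capitals mark the motifs searched on both strands.
Ccne1, chr7:38107491-38107740, minus strand: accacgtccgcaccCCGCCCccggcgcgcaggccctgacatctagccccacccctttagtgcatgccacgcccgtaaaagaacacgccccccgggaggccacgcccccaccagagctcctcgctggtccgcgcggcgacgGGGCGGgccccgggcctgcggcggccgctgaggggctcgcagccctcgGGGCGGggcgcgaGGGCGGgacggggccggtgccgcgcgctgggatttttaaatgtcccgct
Cdk2, chr10:128705052-128705301, minus strand: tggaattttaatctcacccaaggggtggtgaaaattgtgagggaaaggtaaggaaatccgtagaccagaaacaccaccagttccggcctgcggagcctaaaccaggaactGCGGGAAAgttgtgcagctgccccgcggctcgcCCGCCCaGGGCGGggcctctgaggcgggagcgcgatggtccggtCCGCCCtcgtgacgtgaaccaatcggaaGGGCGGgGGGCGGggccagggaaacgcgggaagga
Cdk4, chr10:127063285-127063534, plus strand: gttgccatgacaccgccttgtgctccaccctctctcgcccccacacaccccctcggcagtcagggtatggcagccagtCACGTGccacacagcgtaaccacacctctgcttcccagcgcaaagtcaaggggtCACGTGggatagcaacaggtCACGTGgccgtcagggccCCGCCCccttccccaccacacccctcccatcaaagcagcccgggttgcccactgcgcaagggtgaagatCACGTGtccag
The motifs were 4 forms of the E2F site (TTTGGCGC, TTTCGCGC, TTTCCCGC and TTTGCCGC), the CHR element TTTGAA found in many mitotic promoters, the GC box GGGCGG bound by Sp1, and the E-box CACGTG, and no capitals belong to 2 motifs at once. The Ccne1 window held 4 GC boxes, at 76% G and C, and the Cdk2 window held 5, at 63.2%, while the Cdk4 window held 1, at 64.4%. Over all 32851 RefSeq windows of the same length, 32.7% held a GC box and the median G and C content was 52.4%. Of these 3 windows, Cdk2's alone held one of the E2F forms, GCGGGAAA on the opposite strand at bases -140 to -133 from the start, a motif found in 1.86% of all windows. Cdk4's window held 4 E-boxes, a motif found in 6.02% of all windows. TTTGAA lay in none of the 3, against 16.0% of all windows. Windows were at hand for 6 of the genes (7 windows, with 2 for Ccnd3). Ccnd3's held 2 GC boxes and 1, Cdkn1b's held 1 GC box, and Cdk6's held 1 E-box and no GC box. A match is a description of the letters and not a binding site.

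The values were log2 expression levels between 2.29 and 19.9, with array medians between 4.08 and 4.17. Genes were called dim where their mean lay under 4.69, the 95th percentile of 1714 olfactory and vomeronasal receptor genes, which left 12127 genes at or above it. Of the 9 genes, 7 lay above this limit, and Cdk6 and Cdkn1c lay under it. Con replicate 1, all DOX arrays and DOX_IFNg replicates 1 and 2 stood apart from the other 3 arrays: their pairs shared 82 to 186 exactly identical values, against 1 to 17 in other pairs. The labels do not say whether the replicates came from separate cultures. The p-values therefore reflect the spread among the arrays at hand, which may be technical. Of 9 heart muscle markers measured, 2 were above the dim limit (Tnnt2 and Nkx2-5), and Myh6, Nppa, Myl7, Myl4, Gata4, Ryr2 and Tnni3 were under it. Of 8 skeletal muscle markers 5 were above it, of 7 fibroblast markers 4, of 6 immune markers 1 (Cd14) and of 6 endothelial markers 0. In Con, Myog averaged 8.18, Acta1 8.41 and Col1a1 17.8, against 7.94 for the heart marker Tnnt2, 4.29 for Myh6 and 3.97 for Nppa. Most heart muscle markers measured here thus do not bear out the label of a heart muscle line. The identity of the cells was not tested.

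With doxorubicin alone, RNA for both E cyclins, Cdk2, Ccnd3, Cdkn1b and Cdk6 fell, RNA for Ccnd2 rose, and Cdk4 and Cdkn1c did not pass the test. Ccne1 fell furthest, to 21.7% of the Con level. Of the 9 genes measured, 6 were called lower, where 7.53% of all genes were, and 1 was called higher, where 8.06% were. A call was an adjusted p under 0.05 in limma, with Benjamini-Hochberg adjustment over the 30050 genes. Calls were more common among brighter genes. In a fit of only the 12127 genes at or above the dim limit, 4772 were called, 2457 of them higher. Of the 7 G1 genes in that fit, 6 were called. The median log2 difference between DOX and Con was -0.88 over the 9 genes and -0.01 over all genes. The 3 DOX arrays did not overlap the 3 Con arrays for 7 of the 9 genes, against 32.9% of all genes. In bulk RNA, fewer cells of a type and less RNA per cell cannot be told apart.

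**Figure D1:**
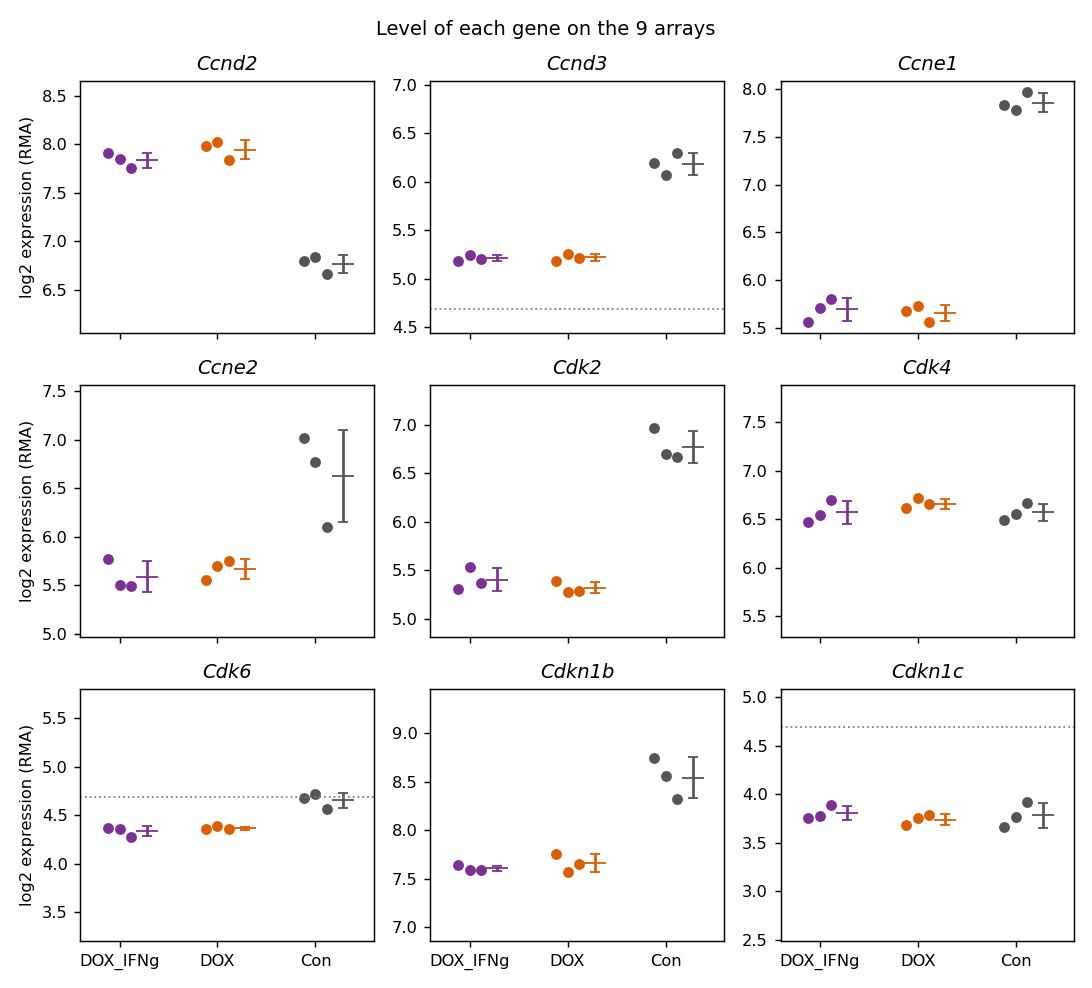
Log2 expression of each of the 9 genes on every array (points), with the mean and SD of each group (bars), for DOX_IFNg, DOX and Con cells, 3 arrays each; panels span equal ranges from different starts, and a dotted line marks the dim limit of 4.69 where it falls within a panel. DOX_IFNg and DOX points lie together and apart from Con for Ccne1, Ccne2, Cdk2, Ccnd2, Ccnd3, Cdk6 and Cdkn1b, and all 3 groups overlap for Cdk4 and Cdkn1c.

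The D cyclins moved in opposite directions. Ccnd2, a D cyclin that couples growth signals to Cdk4 and Cdk6, had log2 levels of 7.91, 7.85 and 7.75 in DOX_IFNg replicates 1 to 3, of 7.98, 8.02 and 7.84 in DOX, and of 6.80, 6.84 and 6.66 in Con. Every treated array lay above the highest Con array, and the nearest, DOX_IFNg replicate 3, did so by 0.918 log2 units. The mean was 7.95 ± 0.10 in DOX and 6.77 ± 0.09 in Con (SD, n = 3 each), a 2.27-fold higher level in DOX (log2 difference 1.18, SE 0.073, limma adjusted p = 2.60e-05). Ccnd2 ranked 216 from the highest among the 30050 log2 differences between DOX and Con.

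Ccnd3, the D cyclin that in mice is needed for the expansion of immature lymphocytes and takes part in muscle differentiation, had log2 levels of 5.18, 5.24 and 5.21 in DOX_IFNg, of 5.19, 5.26 and 5.22 in DOX, and of 6.19, 6.07 and 6.29 in Con. All 6 treated arrays lay below all 3 Con arrays and within 0.08 of each other. The DOX mean was 51.3% of the Con mean (log2 difference -0.96, SE 0.063, limma adjusted p = 3.08e-05). A pseudogene copy, Ccnd3-ps, has its own cluster on the array, and probes of near-identical copies can pick up each other's transcripts, so both values are uncertain as to their source. The Ccnd3-ps cluster was also lower, with log2 levels of 7.23, 7.58 and 7.37 in DOX and of 8.87, 9.02 and 9.31 in Con (log2 difference -1.67, SE 0.15, limma adjusted p = 0.000131).

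The cluster shared by Ccnd1 and Mir3962 had log2 values of 7.12, 7.09 and 7.12 in DOX_IFNg, of 7.22, 7.24 and 7.24 in DOX, and of 6.85, 7.07 and 6.94 in Con. The treated arrays lay above the Con arrays, narrowly so for DOX_IFNg replicate 2 against Con replicate 2. The cluster entered no test, and its values were not assigned to either gene.

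The E cyclins, which activate Cdk2 at the G1/S transition, were both lower with doxorubicin. Ccne1 had log2 levels of 5.57, 5.71 and 5.81 in DOX_IFNg, of 5.68, 5.73 and 5.57 in DOX, and of 7.83, 7.78 and 7.96 in Con. The treated and Con arrays were separated by a gap of 1.97 log2 units between DOX_IFNg and Con and of 2.05 between DOX and Con, far beyond the SDs of 0.08 in DOX and 0.10 in Con. The DOX level was 4.60-fold lower than the Con level (log2 difference -2.20, SE 0.080, limma adjusted p = 5.57e-06). Ccne1 ranked 56 from the lowest among the 30050 log2 differences.

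Ccne2, the second E cyclin, had log2 levels of 5.77, 5.50 and 5.49 in DOX_IFNg, of 5.55, 5.70 and 5.75 in DOX, and of 7.02, 6.77 and 6.10 in Con. The Con arrays were spread widely, and the lowest of them, replicate 3, lay 0.35 above the highest DOX array. The DOX mean was 51.3% of the Con mean, with a wide interval (log2 difference -0.96, SE 0.21, 95% interval -1.44 to -0.49, limma adjusted p = 0.0140). This call was lost when Con replicate 2 was left out (adjusted p = 0.0537) or DOX replicate 1 (adjusted p = 0.0575). Leaving out each array in turn gave log2 differences between -1.23 and -0.77.

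Among the kinases, Cdk2 fell, Cdk6 fell by a small amount and Cdk4 did not pass the test. Cdk2, the partner of the E cyclins and later of cyclin A, had log2 levels of 5.31, 5.53 and 5.37 in DOX_IFNg, of 5.39, 5.28 and 5.29 in DOX, and of 6.96, 6.70 and 6.66 in Con. No treated array came within 1 log2 unit of a Con array. The mean level was 5.32 ± 0.06 in DOX and 6.77 ± 0.16 in Con, a 2.74-fold lower level in DOX (log2 difference -1.45, SE 0.093, limma adjusted p = 2.80e-05). It ranked 146 from the lowest of all genes.

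Cdk4, a partner of the D cyclins, had log2 levels of 6.47, 6.55 and 6.70 in DOX_IFNg, of 6.61, 6.72 and 6.66 in DOX, and of 6.49, 6.56 and 6.67 in Con. The 3 groups overlapped throughout. The log2 difference between DOX and Con was 0.09, with a 95% interval of -0.08 to 0.26 (limma adjusted p = 0.510). With 3 arrays a group this difference could not be told from 0.

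Cdk6, the other partner of the D cyclins, was dim, with log2 levels of 4.37, 4.36 and 4.27 in DOX_IFNg, of 4.36, 4.38 and 4.35 in DOX, and of 4.68, 4.71 and 4.57 in Con. The treated arrays lay below the Con arrays. DOX stood at 81.8% of Con (log2 difference -0.29, SE 0.055, limma adjusted p = 0.00782), and since the gene's mean lay under the dim limit, the size of this fall can be understated.

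Of the inhibitors, Cdkn1b fell and Cdkn1c was dim and did not pass the test. Cdkn1b, which encodes p27, had log2 levels of 7.64, 7.59 and 7.59 in DOX_IFNg, of 7.76, 7.57 and 7.65 in DOX, and of 8.74, 8.56 and 8.33 in Con. All treated arrays lay below all Con arrays, and Con replicate 3 was the nearest of these. The DOX level was 1.84-fold lower than the Con level (log2 difference -0.88, SE 0.10, limma adjusted p = 0.000534). Cdkn1c, which encodes p57 and is expressed from the maternal allele, had log2 levels of 3.76, 3.78 and 3.89 in DOX_IFNg, of 3.68, 3.75 and 3.78 in DOX, and of 3.66, 3.77 and 3.92 in Con. Its groups overlapped, with a log2 difference between DOX and Con of -0.04 (95% interval -0.21 to 0.13, limma adjusted p = 0.783).

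**Figure D2:**
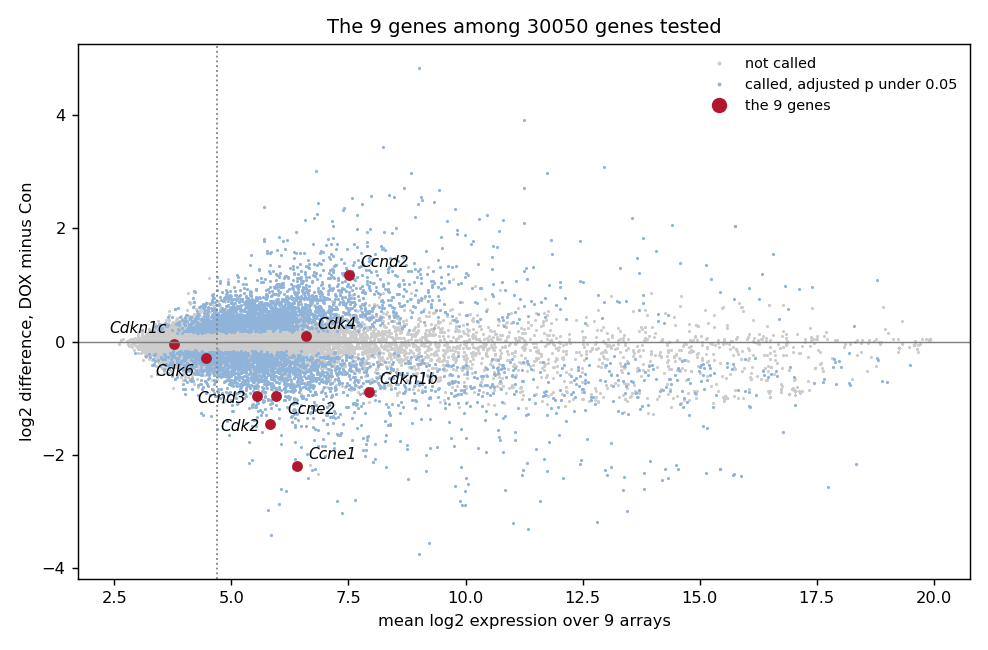
Log2 difference between DOX and Con (vertical axis) against mean log2 expression over the 9 arrays (horizontal axis) for 30050 genes, with called genes in blue, the 9 genes as large red points and the dim limit of 4.69 as a dotted line. Ccne1 lies at -2.20 (rank 56 from the lowest), Cdk2 at -1.45 (rank 146 from the lowest), Ccnd2 at 1.18 (rank 216 from the highest) and Cdk4 near 0.

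Some markers of muscle and fibroblasts, and the immune marker Cd14, differed between the same groups, in both directions. The summed log2 level of the 8 skeletal muscle markers was 42.2 to 43.3 in DOX and 46.5 to 47.3 in Con, with 4 of the 8 called lower and 2 called higher. Most of that fall lay in Myog, a muscle differentiation factor, which averaged 4.76 ± 0.22 in DOX and 8.18 ± 0.19 in Con, while Myod1 was higher in DOX by 0.76 (limma adjusted p = 0.0182) and Des by 0.30 (adjusted p = 0.0266) on the log2 scale. The summed level of the 7 fibroblast and matrix markers was 57.4 to 57.5 in DOX and 60.5 to 62.0 in Con, with 4 called lower and 1 higher. That fall lay in the collagen genes Col3a1 (log2 difference -1.87), Col1a1 (-1.13) and Col1a2 (-1.03). The dim Lum was also called lower (-0.38) and the dim Thy1 higher (0.21). Postn (0.42, limma adjusted p = 0.165) and the dim Dcn (-0.13, adjusted p = 0.322) did not pass. Heart muscle markers summed to 41.4 to 41.9 in DOX and 42.8 to 42.9 in Con, and of the 9 only Tnnt2 was called, at 6.70 ± 0.06 in DOX and 7.94 ± 0.18 in Con, while the other 8 did not pass and the list's median log2 difference was 0.01. Endothelial markers summed to 23.2 to 23.8 in DOX and 23.2 to 23.8 in Con, and immune markers to 25.0 to 25.5 in DOX and 25.0 to 25.4 in Con. Of the immune markers, Cd14 alone was called, higher in DOX by 0.25 (limma adjusted p = 0.0483). It did not pass in DOX_IFNg against Con (adjusted p = 0.744). In DOX_IFNg the sums were 41.7 to 42.3 for skeletal muscle, 57.4 to 57.9 for fibroblast, 41.3 to 41.8 for heart muscle, 23.4 to 23.5 for endothelial and 25.0 to 25.5 for immune markers, and Myog averaged 4.61 ± 0.16. In DOX_IFNg against Con, 4 skeletal muscle markers were called lower and 0 higher, 4 fibroblast markers lower and 1 higher, and 2 heart muscle markers lower (Tnnt2 and Nkx2-5) and 0 higher. The part of these markers in the differences of the G1 genes was not tested.

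The arrays that shared exact values gave the same directions for the 7 called genes. Within that set, the 3 DOX arrays minus Con replicate 1 gave log2 differences of -2.18 for Ccne1, -1.64 for Cdk2, -1.35 for Ccne2, -1.08 for Cdkn1b, -0.97 for Ccnd3, -0.32 for Cdk6 and 1.15 for Ccnd2. Among the arrays outside it, DOX_IFNg replicate 3 minus the other 2 Con arrays gave -2.07 for Ccne1, -1.31 for Cdk2, -0.95 for Ccne2, -0.85 for Cdkn1b, -0.97 for Ccnd3, -0.37 for Cdk6 and 1.00 for Ccnd2. No DOX array lay outside the set.

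With doxorubicin and interferon gamma together, the same 7 genes were called against Con, each in the direction it had with doxorubicin alone. The comparisons share the Con arrays and are given side by side for that reason. Of the 9 genes, 6 were called lower, where 9.41% of all genes were, and 1 higher, where 8.01% were, and the arrays of 7 did not overlap, against 33.0% of all genes. In the fit of only the 12127 genes at or above the dim limit, 5279 were called, 2368 of them higher. Of the 7 G1 genes in that fit, 6 were called. The median log2 difference between DOX_IFNg and Con was -0.93 over the 9 genes and -0.02 over all genes.

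Ccne1 stood at 22.3% of the Con level in DOX_IFNg (log2 difference -2.16, limma adjusted p = 5.74e-06). Cdk2 stood at 38.7% (-1.37, adjusted p = 3.56e-05), Ccne2 at 48.6% (-1.04, adjusted p = 0.00892) and Ccnd3 at 50.9% (-0.97, adjusted p = 3.01e-05). Cdkn1b stood at 52.3% (-0.93, adjusted p = 0.000375) and the dim Cdk6 at 80.2% (-0.32, adjusted p = 0.00451). Ccnd2 was 2.10-fold higher (log2 difference 1.07, adjusted p = 3.82e-05). The kinase Cdk4 had a 95% interval of -0.17 to 0.17 around a difference near 0 (adjusted p = 0.994), and the p57 gene Cdkn1c differed by 0.02 (adjusted p = 0.885). The Ccnd3-ps cluster had a log2 difference of -1.80 (adjusted p = 8.27e-05).

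Adding interferon gamma to doxorubicin gave no called difference in any of the 9 genes. In limma 0 of the 9 were called and 0 had an unadjusted p under 0.05, while over all genes 0 of 30050 were called (0.00%) and 1503 had an unadjusted p under 0.05. Such a cutoff gives about that number of 30050 genes where no gene differs. No other tool was run. The log2 differences between DOX_IFNg and DOX lay between -0.11 for Ccnd2 and 0.08 for Cdk2, with adjusted p-values of 0.977 to 0.998. The DOX_IFNg and DOX arrays overlapped for all 9, whereas 11.2% of all genes had arrays that did not.

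The 95% intervals of these differences reflect the spread among the arrays at hand, which may be technical. They were not adjusted for the 9 genes and set no limit on the effect of interferon gamma. They ran from -0.28 to 0.06 for Ccnd2 and from -0.15 to 0.13 for Ccnd3, the measured D cyclins. For the E cyclins they ran from -0.14 to 0.22 for Ccne1 and, the widest of the 9, from -0.55 to 0.39 for Ccne2. The fit shares 1 spread over all 3 groups, and the SD of Ccne2 was 0.47 in Con, 0.10 in DOX and 0.16 in DOX_IFNg. The width for Ccne2 thus owes much to the Con arrays, which are not part of this comparison. The kinases had -0.13 to 0.30 for Cdk2, -0.26 to 0.08 for Cdk4 and -0.16 to 0.10 for Cdk6. The inhibitors had -0.28 to 0.18 for Cdkn1b and -0.10 to 0.24 for Cdkn1c. Each interval includes 0, so none of the 9 differences could be told from 0 with 3 arrays a group.

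**Figure D3:**
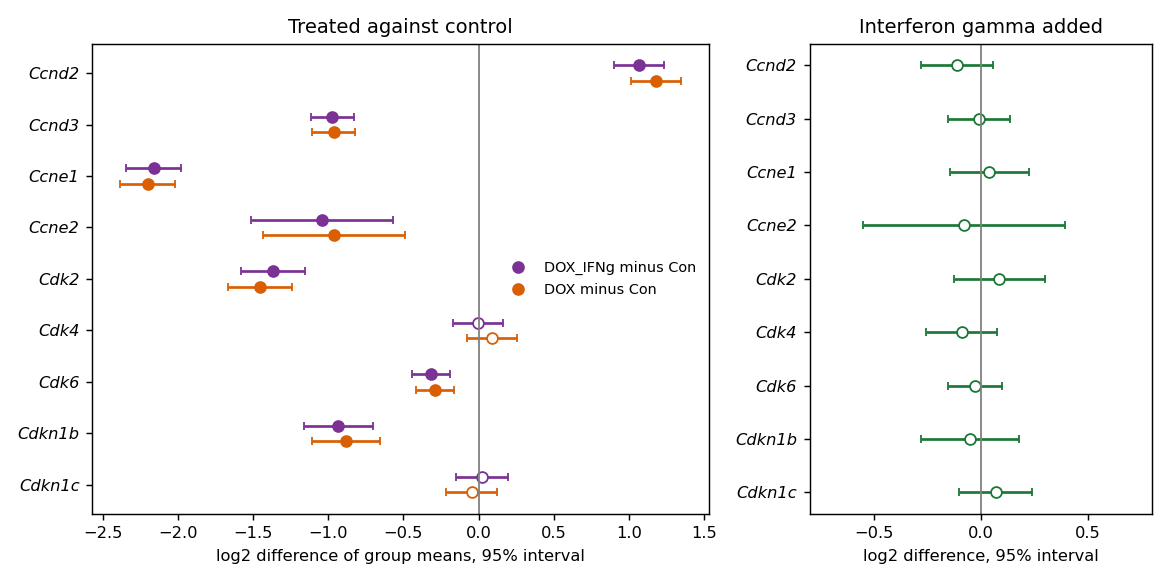
Log2 differences of group means with 95% intervals for the 9 genes, on the left for DOX_IFNg minus Con (purple) and DOX minus Con (orange), on the right for DOX_IFNg minus DOX (green); filled points were called. The 7 called genes lie off 0 on the left, from -2.20 for Ccne1 to 1.18 for Ccnd2, and every interval on the right crosses 0.

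Other parts of the G1 pathway were read from lists of related genes, whose counts stand beside 7.53% of all genes called lower and 8.06% called higher in DOX against Con, and 9.41% and 8.01% in DOX_IFNg against Con. Most listed genes lay above the dim limit, where calls were more common than these shares (4772 of 12127 genes in DOX against Con and 5279 in DOX_IFNg against Con). Among the E2F factors and pocket proteins, 9 of 13 fell with doxorubicin, 2 rose and 2 did not pass, with a median log2 difference of -0.34 between DOX and Con. The brightest cluster of Rb1, the retinoblastoma protein that Cdk4, Cdk6 and Cdk2 phosphorylate, rose, with a mean level of 7.37 ± 0.11 in DOX and 5.93 ± 0.09 in Con (log2 difference 1.44, SE 0.11, limma adjusted p = 6.34e-05). The 3 clusters of Rb1 disagreed: the other 2 differed by -0.07 and 0.72 between DOX and Con, and by 0.19 and 0.05 between DOX_IFNg and Con. The brightest cluster was picked by its mean over all 9 arrays, treated ones included. In Con alone the cluster that differed by -0.07 was brighter, with a mean of 6.32 against 5.93. The adjusted p of the brightest cluster is therefore not independent of how that cluster was picked. The mean over the clusters of Rb1 gave 0.70 (adjusted p = 0.00648) in DOX against Con and 0.63 (adjusted p = 0.00972) in DOX_IFNg against Con. Whether Rb1 rose, and by how much, thus depends on the cluster used. The relative of Rb1, Rbl1, the pocket protein p107, fell by 0.94 (adjusted p = 0.000739), E2f5 by 0.78 (adjusted p = 0.000471) and the repressor E2f8 by 0.62 (adjusted p = 0.000145). E2f1, the activator best known at the E cyclin promoters, was dim and had a log2 difference of -0.17 (adjusted p = 0.105). With interferon gamma added, 10 of 13 fell against Con and 2 rose, with the brightest Rb1 cluster at 1.66 (adjusted p = 3.26e-05), and E2f1 at -0.23 (adjusted p = 0.0357), a call lost without any one of 8 of the 9 arrays and at -0.12 with only the 6 arrays that share exact values (adjusted p = 0.506).

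Of the other CDK inhibitors, 1 of 6 fell with doxorubicin, where 7.53% of all genes did, 0 rose and 5 did not pass, with a median of 0.01. A single call among 6 genes is near what that share gives. The gene that fell was Cdkn2c, which encodes the Cdk4 and Cdk6 inhibitor p18, with a mean level of 5.10 ± 0.18 in DOX and 6.43 ± 0.27 in Con (log2 difference -1.33, SE 0.14, limma adjusted p = 0.000316). Cdkn1a, the p53 target that encodes p21, had a log2 difference of 0.37 between DOX and Con (adjusted p = 0.118), which passed without DOX_IFNg replicate 3 (adjusted p = 0.00844), in a fit of those 2 groups alone (adjusted p = 0.0102) and with a term for the arrays that share exact values (0.54, adjusted p = 0.0401). It was called higher in DOX_IFNg against Con at 0.50 (adjusted p = 0.0383), and this call was lost without any one of 7 of the 9 arrays. Without DOX_IFNg replicate 3 the value was 0.32 (adjusted p = 0.0249), and in a fit of the 2 groups alone the call was lost (adjusted p = 0.0911). Cdkn2c was lower there as well, at -1.29 (adjusted p = 0.000367).

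Genes that act on the cyclin and kinase proteins were mixed. In the list for turnover of cyclins and p27, 4 of 12 rose, 3 fell and 5 did not pass, with a median of 0.14. Skp2, the F-box protein that with Cks1b marks p27 for destruction, fell by 0.56 (limma adjusted p = 0.00128), the ubiquitin ligase adaptor Skp1a by 0.54 (adjusted p = 0.00105), and Cks1b by 0.53 (adjusted p = 0.0139). Cks1b no longer passed with Con replicate 2 (adjusted p = 0.0539) or DOX replicate 1 (adjusted p = 0.0593) left out. It also failed with a term for the arrays that share exact values (-0.36, adjusted p = 0.0638) and, as did Skp1a (-0.48, adjusted p = 0.0667), with only those 6 arrays (-0.25 for Cks1b, adjusted p = 0.190). Fbxw7, the F-box protein that marks cyclin E for destruction, rose by 0.56 (adjusted p = 0.00141). In DOX_IFNg against Con the counts were 4 higher and 3 lower of 12, with Fbxw7 at 0.67, Skp2 at -0.62, Cks1b at -0.56 and Skp1a at -0.46. With only the 6 arrays Cks1b was at -0.32 there (adjusted p = 0.137) and Skp1a at -0.39 (adjusted p = 0.133).

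Among genes for CDK activation, 1 of 7 rose, 2 fell and 4 did not pass, with a median of -0.04. Of the phosphatases that remove the inhibitory phosphates of CDKs, Cdc25b fell by 0.74 (limma adjusted p = 3.36e-05) and Cdc25a by 0.37 (adjusted p = 0.0101), while the dim Cdc25c had a log2 difference of 0.29 (adjusted p = 0.102). The Cdc25a call was lost with a term for the arrays that share exact values (adjusted p = 0.0588) and with only those 6 arrays (adjusted p = 0.0635). Cdk7, the CDK-activating kinase, rose by 0.47 (adjusted p = 0.00588), a call lost with only those 6 arrays (adjusted p = 0.0690). Of the 3 inhibitory kinases, 2 fell and 1 did not pass, with a median of -0.19. Wee1, which places the inhibitory phosphate, fell by 1.26 (adjusted p = 1.73e-05), with a mean level of 6.83 ± 0.05 in DOX and 8.10 ± 0.12 in Con. Pkmyt1, a dim gene, fell by 0.19 (adjusted p = 0.0478), a call lost without any one of 8 of the 9 arrays.

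In DOX_IFNg against Con, 2 of the 7 activating genes rose and 2 fell, and 2 of the 3 inhibitory kinases fell. Their log2 differences were -0.68 for Cdc25b, -0.42 for Cdc25a, 0.51 for Cdk7, -1.39 for Wee1 and -0.24 for Pkmyt1. The dim Cdc25c, which acts at mitotic entry, was called higher there at 0.38 (limma adjusted p = 0.0328). The calls of Pkmyt1 (without Con replicate 1, DOX_IFNg replicate 1 or DOX_IFNg replicate 2) and Cdc25c (without Con replicates 1, 2 or 3, DOX replicate 2 or DOX_IFNg replicates 2 or 3) were lost with 1 array left out. Both were also lost in a fit of the 2 groups alone (adjusted p = 0.0514 for Pkmyt1 and 0.0528 for Cdc25c). Cdc25c failed as well with the replicate block (adjusted p = 0.0597) and with a term for the arrays that share exact values (adjusted p = 0.0591). With only the 6 arrays, Cdc25a (adjusted p = 0.0545) and Cdk7 (adjusted p = 0.0935) did not pass there.

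The cyclins and kinase of S, G2 and M phases were lower where they passed. Of 5 measured, 3 fell with doxorubicin and 2 did not pass, with a median of -0.67. Ccnb2, a mitotic cyclin, fell by 0.99 (limma adjusted p = 0.000395), Ccna2, the S and G2 cyclin that also binds Cdk2, by 0.74 (adjusted p = 0.000486), and Cdk1, the kinase of mitosis, by 0.67 (adjusted p = 0.000878). The same 3 were called lower in DOX_IFNg against Con, with log2 differences of -1.06, -0.59 and -0.76 in that order.

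Of 23 cyclins and kinases of transcription and of other roles, 3 rose with doxorubicin, where 8.06% of all genes did, 5 fell, where 7.53% did, and 15 did not pass, with a median of 0.01. Of the 23, 21 lay above the dim limit, where calls in DOX against Con were more common (4772 of 12127 genes). The counts of this list are therefore not read as a raised share. Ccng1, a p53 target that encodes cyclin G1, rose by 1.70 (limma adjusted p = 5.46e-05). Cdk10 rose by 0.94 (adjusted p = 0.00221) and Ccnl1, a cyclin linked to splicing, by 0.76 (adjusted p = 0.0196), while Cdk16 fell by 0.64 (adjusted p = 0.00295). Ccnl1 no longer passed with DOX replicate 1 (adjusted p = 0.0746) or DOX replicate 3 (adjusted p = 0.0624) left out, and its value was 0.50 with a term for the arrays that share exact values (adjusted p = 0.0909). In DOX_IFNg against Con, 8 of 23 rose and 6 fell, with Ccng1 at 1.74, Ccnt2, a partner of the transcription elongation kinase Cdk9, at 1.20, Ccnl1 at 1.08 and Ccnl2 at 0.74. Ccnt2 no longer passed there with DOX_IFNg replicate 2 left out (adjusted p = 0.0514), and Ccnl2 with any one of 6 of the 9 arrays left out. With doxorubicin alone, Ccnt2 was also higher than in Con, by 0.86 (limma adjusted p = 0.0585), and Ccnl2 by 0.45 (adjusted p = 0.200). Neither passed, though Ccnt2 did under 4 of 17 alternatives. No gene of these lists was called between DOX_IFNg and DOX.

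**Figure D4:**
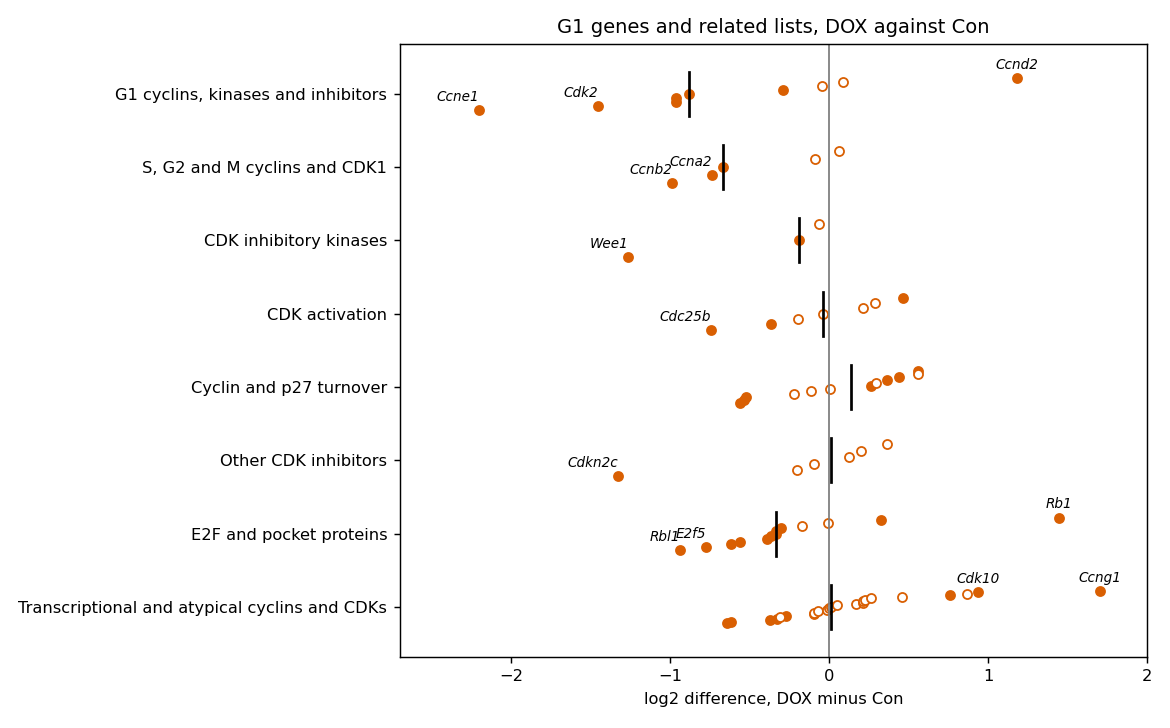
Log2 difference between DOX and Con for each measured gene (points, filled where called) of the G1 group and of 7 related lists, with the median of each list as a black bar; Rb1 is its brightest cluster. The G1 group has its median at -0.88 and the S, G2 and M list at -0.67, while the other inhibitors, the activation list and the transcription list have medians between -0.04 and 0.01.

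Genes whose levels followed the 3 most changed G1 genes across the arrays were picked by the smallest root mean square difference after each gene was centred on its own mean, among 18259 protein-coding genes and over 9 arrays. The closest to Ccne1 were Mcm2 (0.062 log2 units) and Mcm5 (0.15), subunits of the replicative helicase, and Ahcy (0.16), which hydrolyses S-adenosylhomocysteine. The closest to Cdk2 were Pole (0.084), the catalytic subunit of DNA polymerase epsilon, Tcf7l2 (0.093), a transcription factor of Wnt signalling, and Gpc6 (0.10), a cell surface proteoglycan. The closest to Ccnd2 were Ypel5 (0.045), Atp6v1h (0.063), a subunit of the vacuolar proton pump, and Kctd19 (0.068). These distances include the differences between groups and are a description with no test.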

How the data were processed

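RNA of the 9 arrays was given as 1 deposited table of log2 expression values, 1 per transcript cluster and array. Per the submitters' processing notes the authors used RMA, which corrects background, normalizes arrays and summarizes probes; the sources used here give neither its version nor its settings. That the scale is log2 was read from the range of the values. RMA compresses differences between dim probes.

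Of 65527 clusters, 30376 carried a single symbol in the platform annotation, 2117 several, and 33034 were not listed and are unnamed here. They gave 30050 genes, and the brightest cluster stood for each of 245 genes with more than 1. Groups and replicate numbers came from the labels. Group means were fitted to all 9 arrays in R 4.3.3 by limma 3.58.1, using lmFit and eBayes, with 6 residual and 2.41 prior degrees of freedom, no filter and no covariate. Tests were two-sided, with Benjamini-Hochberg adjustment over all genes. The fit was tested on simulated data. Precision is limited by the number of arrays: for the median gene the 95% interval was ±0.19 in log2 units.

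The genes, lists, tests and alternatives were chosen with earlier results of these data known. All 10 genes are named, with up to 4 called genes per other list and comparison, by size, and Cdkn1a, Rb1, E2f1, Skp2, Ccna2 and Cdk1 in any case. Motifs and promoters were read from a RefSeq table. Alternatives were quantile normalization, a dim filter, an intensity trend, 2-group fits, a replicate block, a term for the arrays sharing exact values, cluster means, and leaving out each array.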

Additional observations from a re-analysis of the deposited data

How the results depend on the processing

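Each gene was recomputed under 17 alternatives (16 for Cdk6 and Cdkn1c, which the dim filter leaves out). Of the called genes, 5 of 7 (Ccne1, Cdk2, Ccnd2, Ccnd3 and Cdkn1b) kept their direction and call against Con under all 17. Ccne2 and Cdk6 were the exceptions: Ccne2 as described above, and Cdk6 in DOX_IFNg minus Con with only the 6 arrays that share exact values (adjusted p = 0.0576), an alternative chosen after seeing the data. Under the dim filter 6 G1 genes were called in each comparison with Con. With only those 6 arrays, 2457 genes were called in DOX minus Con and 2234 in DOX_IFNg minus Con, against 4687 and 5234 with all arrays, with fewer samples in the fit. Leaving out each array in turn gave 3329 to 4568 genes in DOX minus Con, 0 to 1 in DOX_IFNg minus DOX (1 without Con replicate 3) and 3770 to 4974 in DOX_IFNg minus Con.

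The differences that changed sign were all uncalled. For Cdkn1c in DOX minus Con the value was 0.057 with a term for the shared-value arrays and 0.076 with only those arrays, and it ranged from -0.10 to 0.024 with 1 array left out. For Cdk4 in DOX_IFNg minus Con it was 0.021 with quantile normalization, 0.050 with the term and 0.017 with the 6 arrays, and it ranged from -0.064 to 0.049 with 1 array left out, while Cdkn1c ranged from -0.037 to 0.092. In DOX_IFNg minus DOX, Ccnd3 was 0.0024 with quantile normalization and ranged from -0.026 to 0.0093 with 1 array left out. Ccne1 was -0.016 with the 6 arrays and ranged from -0.016 to 0.10. Cdk6 was 0.00052 with the 6 arrays and ranged from -0.048 to 0.00052. With the term, Ccne2 was 0.042 and Cdkn1b 0.0012. The cause was not tested.

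Whether replicate numbers pair the arrays was not settled. Deviations of same-numbered arrays correlated at -0.16 to 0.36 over 9 pairs, and of differently numbered arrays at -0.40 to 0.28 over 18. These ranges overlap, but the highest values came from same-numbered Con and DOX_IFNg arrays, replicates 1 (0.36) and 3 (0.33). With the replicate block, 4472 genes were called in DOX minus Con, 0 in DOX_IFNg minus DOX and 4988 in DOX_IFNg minus Con, and all 7 G1 genes were still called against Con. With 3 arrays a group and signal near background for Cdk6 and Cdkn1c, small differences could not be detected.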
